A study of Mus musculus with 22 samples.

Results

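Skipping of cassette exons was compared between mouse embryonic stem (ES) cells in which all 3 heterochromatin protein 1 (HP1) genes had been knocked down and untransfected wild-type (WT) cells. A cassette exon is an internal exon that is either kept in the mature mRNA or left out together with its flanking introns. Exon events entered the comparison if each library had at least 20 reads that distinguish the 2 isoforms, and if each library had at least 1 read for inclusion and 1 for skipping. Of 6425 events listed in both libraries 4591 had 20 such reads in each, and 1741 of those also had both classes in each. These 1741 events covered 1689 distinct exons in 1229 genes, out of 10873 events listed in any library of the series. The read counts therefore took part in choosing the events, through the depth and the presence of both isoforms. The direction of a difference was not itself a criterion, but the need for both isoforms bore on it. Without that need the balance of higher and lower events changed, as given at the end of the Results.

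HP1 proteins bind histone H3 methylated at lysine 9 through a chromodomain and recruit further proteins through a chromoshadow domain. HP1alpha (gene Cbx5) and HP1beta (gene Cbx1) are found mostly in compacted chromatin, while HP1gamma (gene Cbx3) is also found along transcribed genes. Splicing largely takes place while the gene is being transcribed, so proteins on the chromatin template can influence which exons the spliceosome recognises. SR proteins, which mostly promote recognition of an exon, and hnRNP proteins, which often oppose it, are the best known regulators of this choice.

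Both groups were cells of the R1 mouse ES line, obtained from ATCC and kept feeder-free on gelatin in medium with leukaemia inhibitory factor. The triple knock-down group received siRNA against HP1alpha, HP1beta and HP1gamma at 60 nM each with a lipid reagent, and RNA was taken 48 h later. The WT group was not transfected, and no control siRNA group is labelled. The WT group was read as single ends of 50 bases (mRNA-seq kit, Genome Analyzer). Every knock-down group was read as pairs of 101 bases (TruSeq kit, HiSeq). Knock-down, transfection, library kit and read length coincide and cannot be told apart. Each group had 2 replicates, which the authors pooled before deposit, so 1 WT library and 1 triple knock-down library were compared. The differences have no replicate check, and each exact test compares the reads of these libraries, not the conditions. For comparison, values are also given for R1 cells in which a single HP1 gene was knocked down (90 nM), for TKO cells, an ES line from another source that lacks the DNA methyltransferases Dnmt1, Dnmt3a and Dnmt3b, and for TKO cells after the triple knock-down (80, 80 and 120 nM).

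Over the 1741 events the median number of distinguishing reads was 248 in WT and 82 in the triple knock-down. Event reads of each targeted gene, relative to all event reads, were set against those of the single knock-downs aimed at the other HP1 genes, which share the platform. The triple knock-down stood at a ratio of 0.522 for Cbx5 (exact 95% binomial interval 0.457 to 0.594), 0.352 for Cbx1 (0.338 to 0.366) and 0.710 for Cbx3 (0.600 to 0.838). Intervals throughout cover counting error only. Of 12 ES cell markers 5 (Klf4, Zfp42, Tdh, Sall4 and Tcl1) had a listed exon event, and all 5 were listed in both libraries. None of 9 fibroblast or feeder markers had a listed event. Of 14 differentiation markers Pax6 and Hnf4a were listed in WT, with 1099 reads together, and none was listed in the shallower triple knock-down.

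Most exons had lower odds of inclusion in the triple knock-down, and the more so the longer the exon. The measure was the log2 odds ratio of inclusion-only to skipping-only reads, triple knock-down over WT, with 0.5 added to each class. Its median over all 1741 events was -0.79, and it was below 0 in 1232 events (70.8%). Exons were ranked by length into 8 classes of near-equal size. The median was -0.35 for exons of 18 to 59 nucleotides and -0.64, -0.53 and -0.54 for the classes of 60 to 78, 79 to 96 and 97 to 111 nucleotides. It was -0.97 for 112 to 131 nucleotides, -0.95 for 132 to 159, -1.27 for 160 to 211 and -1.24 for exons of 212 nucleotides or more. Within the shortest class the middle of the distribution, from the lower to the upper quartile, ran from -1.21 to 0.58, and in the longest class from -2.30 to -0.12. An odds ratio of 1 is thus not a neutral reference here, and each exon was compared with the median of its own length class. The difference from that median is called the length-adjusted log2 odds ratio below.

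**Figure D1:**
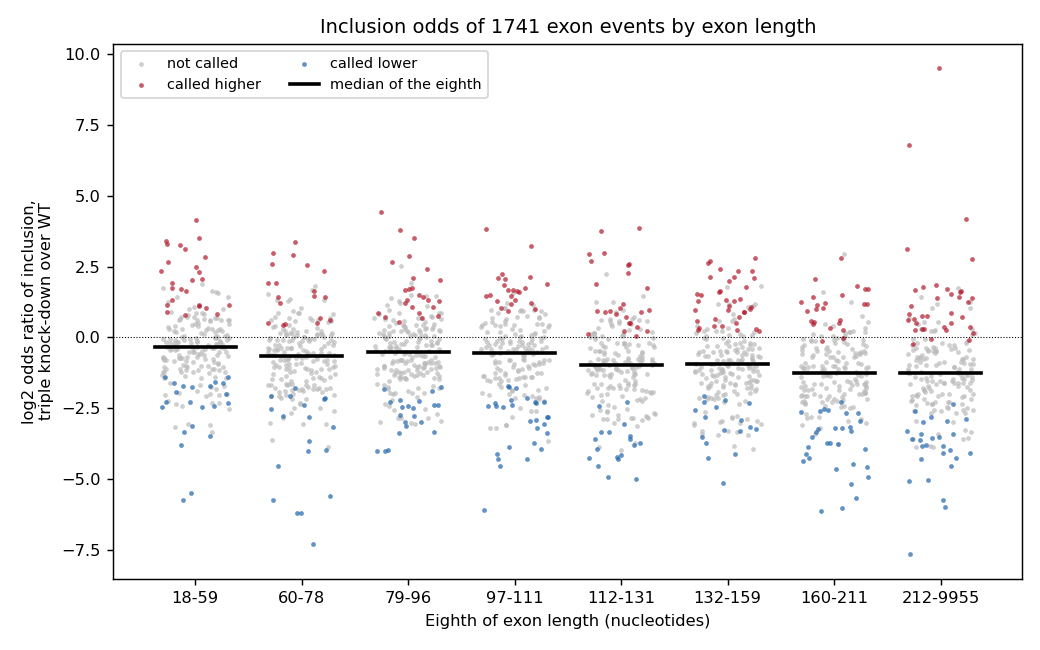
Each point is an exon event, placed by its length class (nucleotides, x axis) and its log2 odds ratio of inclusion, triple knock-down over WT (y axis); horizontal bars are class medians. The bars move from -0.35 in the shortest class to -1.24 in the longest, and the called exons (red higher, blue lower) lie on either side of them in every class.

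Relative to exons of similar length, 216 events were called higher in the triple knock-down and 183 lower, which is 12.4% and 10.5% of the 1741 events. A call required an adjusted p of at most 0.05 in a two-sided conditional exact test against the median odds ratio of the length class, with Benjamini-Hochberg adjustment over all 1741 events, and a length-adjusted log2 odds ratio of at least 1 in size. The higher events lay in 192 genes and the lower in 156, and 338 genes had a call. The median length-adjusted log2 odds ratio was 2.15 among the higher and -2.30 among the lower events. An exact 95% interval wholly within 1 of the class median was found for 81 events (4.65%), so for most uncalled events the depth did not allow a change of this size to be told from none. The balance of directions rests on the reference: against an odds ratio of 1, 96 events were called higher and 433 lower. When the deposited inclusion level also had to change by 0.1 in the same direction, 70 were higher and 137 lower.

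The deposited inclusion level, the estimated share of transcripts that keep the exon (0 to 1), moved with the reads far more often for lower than for higher events. Of the 183 lower events 176 had a lower level in the triple knock-down, and for 155 the deposited intervals of the libraries were also apart. Of the 216 higher events 140 had a higher level, 65 a lower one and 11 an equal one, and 55 had a higher level with intervals apart. The 65 opposed events had a median exon length of 162 nucleotides against 105.5 for those whose level rose, and 23 of them were in the longest class. Median levels over the 155 lower events went from 0.60 in WT to 0.15, and over the 55 higher events from 0.37 to 0.72. These 210 events with intervals apart and level and reads in 1 direction supplied the exons named next.

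Among the 12 largest increases the exon of Naca, a chaperone subunit that binds nascent peptides at the ribosome, stood furthest from its length class. This 5916-nucleotide exon (chromosome 10, 128039171 to 128045086, mm10 as for all coordinates here) is known from a muscle form of the protein. WT had 515 reads for inclusion and 1921 for skipping, and the triple knock-down had 291 and 1, a length-adjusted log2 odds ratio of 10.74 (95% exact interval 8.82 to 16.63). Skipping reads were also few in the single knock-downs, at 4, 8 and 9 for HP1alpha, HP1beta and HP1gamma, while TKO had 1378. The deposited level of Naca moved from 0.03 to 0.42 with a wide interval in the triple knock-down, 0.08 to 0.93, and stood at 0.18, 0.07 and 0.03 in the single knock-downs.

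Srsf1, which encodes the founding SR protein and regulates its own mRNA, had an exon of 187 nucleotides (chromosome 11, 88049412 to 88049598) at a level of 0.74 in WT and 0.98 in the triple knock-down. Its reads went from 6265 for inclusion and 196 for skipping to 778 and 3 (length-adjusted log2 odds ratio 4.07, interval 2.72 to 6.58). A 37-nucleotide exon of Atp5c1, the gamma subunit of mitochondrial ATP synthase (chromosome 2, 10056770 to 10056806), stood at 0.39 in WT and 0.96 in the knock-down. It had 111 reads for inclusion and 29 for skipping in WT against 257 and 6 in the knock-down, and passed at an adjusted p of 4.26e-10 in the exact test. The Dkc1 exon (X chromosome, 75096633 to 75096714) went from 0.25 to 0.72. Dkc1 encodes dyskerin, the pseudouridine synthase of small nucleolar and telomerase RNPs. Chtf8, part of a clamp loader for sister chromatid cohesion, went from 0.51 to 0.90 (chromosome 8, 106886920 to 106887051).

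The other increases among the 12 were at the ends of the scale. Prmt5, the main symmetric arginine methyltransferase and a modifier of Sm proteins, went from 0.94 to 0.98 (WT 1551 reads for inclusion and 67 for skipping, knock-down 621 and 3). Med28, a Mediator subunit, went from 0.97 to 1.0. From near 0 rose the exons of Rps6kb1, the S6 kinase downstream of mTOR (0.02 to 0.13), of Ptprf, a receptor tyrosine phosphatase (0.01 to 0.10), and of Clstn1, a calsyntenin (0.02 to 0.17). The same held for Bnip2, a BCL2-interacting protein (0.01 to 0.08), and Ube2g1, a ubiquitin-conjugating enzyme (0.01 to 0.05). In 8 of the 12, at least 1 read class held fewer than 5 reads, and their intervals are accordingly wide.

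Among the 12 largest decreases the deposited level differed most in Ccnb1, Kansl2, Rpl10 and Gm21992, of which Kansl2 alone was still called after the WT reads were thinned. Thinning was 1 random draw of the WT reads of each exon, down to the knock-down's depth. Where WT skipping reads were rare, such a draw removes most of them, so a call lost there does not tell no difference from too few reads. The Kansl2 exon (chromosome 15, 98531323 to 98531529) belongs to a subunit of the NSL histone acetyltransferase complex. It stood at 0.74 in WT (deposited interval 0.69 to 0.78) and 0.04 in the triple knock-down (0.01 to 0.07). Reads for inclusion and skipping numbered 640 and 27 in WT against 5 and 16 in the knock-down. A 1541-nucleotide exon of the prion protein gene Prnp, whose event also lies in the overlapping locus Prn (chromosome 2, 131918028 to 131919568), went from 0.46 to 0.01. In TKO cells without knock-down the Prnp exon stood at 0.97, and at 0.16 after the triple knock-down there. Ccnb1, which encodes the mitotic cyclin B1, went from 1.0 to 0.07 (chromosome 13, 100780022 to 100780132). Its distinguishing reads were 1760 and 3 in WT but 18 and 2 in the knock-down, and with the WT reads thinned to the knock-down's depth the exon was no longer called (adjusted p = 0.82, exact test; 0.0128 at full depth), nor was it with no minimum per read class (0.0629). The ribosomal protein gene Rpl10 went from 1.0 to 0.30, on 22109 and 4 reads in WT and 486 and 6 in the knock-down; after thinning its adjusted p was 0.931 by the exact test. At Ccnb1 and Rpl10 inclusion reads still outnumbered skipping reads in the knock-down, which the low deposited levels there do not reflect. Copies of ribosomal protein genes are near-identical, and reads of Rpl10 and Rps27l may come from more than 1 locus.

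The largest decrease by reads was in U2af2, which encodes the subunit of U2AF that binds the polypyrimidine tract before the 3' splice site. Its 64-nucleotide exon (chromosome 7, 5068733 to 5068796) had 39 reads for inclusion and 10 for skipping in WT against 5 and 229 in the triple knock-down, a length-adjusted log2 odds ratio of -6.65 (interval -8.75 to -5.08). The deposited level, which already stood at 0.07 in WT, went to 0.01. Hnrnpf, a binder of G tracts, went from 0.07 to 0.01 at its 61-nucleotide exon, on 219 and 2 reads in WT and 13 and 7 in the knock-down. Inclusion reads of Hnrnpf thus outnumbered skipping reads in both libraries, which its low deposited levels do not reflect. Rps27l went from 0.16 to 0.01, on 140 and 158 reads in WT and 8 and 711 in the knock-down. Fignl1, an ATPase of homologous recombination, went from 0.30 to 0.13, on 260 and 1 reads in WT and 34 and 12 in the knock-down. The predicted gene Gm21992 went from 0.98 to 0.29, on 1073 and 2 reads in WT and 84 and 10 in the knock-down. At both exons inclusion reads outnumbered skipping reads in each library. The deposited levels in the knock-down do not reflect this, and neither does the WT level of Fignl1. Gtpbp6, a GTP-binding protein, went from 0.99 to 0.62 and the ubiquitin ligase gene Marchf7 from 1.0 to 0.79, each with 1 skipping read in WT. The glycolytic gene Ldha went from 0.01 to 0.00, on 81 and 688 reads in WT and 6 and 1938 in the knock-down. After thinning of the WT reads, Hnrnpf (adjusted p = 0.13), Gm21992 (0.308), Gtpbp6 (0.153) and Marchf7 (0.358) were not called by the exact test either. As with the increases, at least 1 read class held fewer than 5 reads in 8 of the 12 decreases.

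**Figure D2:**
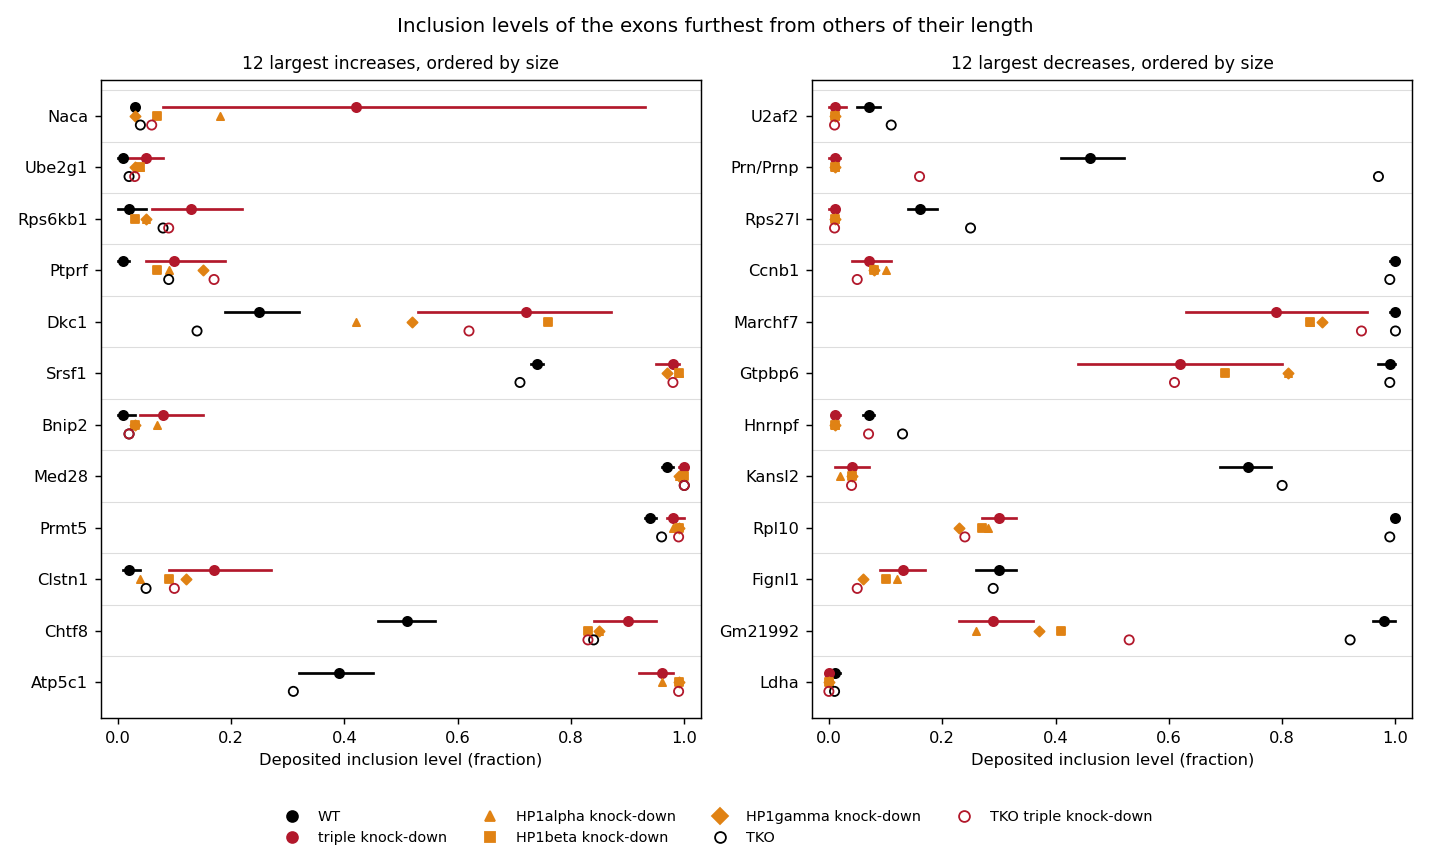
Deposited inclusion level (fraction, x axis) of the 12 largest increases (left) and 12 largest decreases (right) in all 7 libraries, with the deposited interval as a line for WT and the triple knock-down. The orange single knock-downs lie near the red triple knock-down at Atp5c1 (0.96 to 0.99) and Kansl2 (0.02 to 0.04). At Naca they lie at 0.03 to 0.18 against 0.42, but the triple knock-down's interval there is 0.08 to 0.93. Skipping reads of Naca were few in all of these libraries (4, 8 and 9 in the single knock-downs, 1 in the triple). The open TKO symbols differ from WT most at Prn/Prnp (0.97 against 0.46).

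Exons of splicing regulators were called in both directions. Among 29 events of SR proteins and their kinases 4 were higher and 6 lower (34.5% called, against 22.9% over all members), with a median length-adjusted log2 odds ratio of -0.29 against 0 over all members. Lower were 3 exons of Rsrc2, an arginine- and serine-rich protein, with levels of 0.28 to 0.43 in WT and 0.04 to 0.16 in the triple knock-down. The Tra2a exon of 306 nucleotides (chromosome 6, 49252803 to 49253108) went from 0.68 to 0.10 on 1948 and 288 reads in WT and 191 and 225 in the knock-down. Tra2a is a splicing activator whose gene holds an exon that stops its own protein. Whether the 306-nucleotide exon is that exon was not checked. Its length-adjusted log2 odds ratio was -1.75 (interval -2.09 to -1.41). With no minimum per read class the value was -0.82, which is under the size needed for a call. In Srsf2 and Srrm1 the lowered exons were rare already in WT (0.02 each). Higher were Srsf1, an exon of Srsf7 and a pair of overlapping exons of Srsf6. The Srsf7 exon of 460 nucleotides moved from 998 and 1314 reads in WT to 510 and 313, while its deposited level went the opposite way, from 0.24 to 0.07.

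For hnRNP genes 7 of 27 events were higher and 5 lower (44.4% called, against 22.9% over all members), with a median of 0.23. Ptbp1, the polypyrimidine tract-binding protein that represses many exons, had called exons both ways. Its exons of 31 and 34 nucleotides rose from 0.71 to 0.89 and from 0.89 to 0.97, while the 78-nucleotide exon (chromosome 10, 79860117 to 79860194) fell from 0.65 to 0.41, on 1815 and 324 reads in WT and 277 and 169 in the knock-down. After thinning, the 31-nucleotide exon of Ptbp1 was not called (adjusted p = 0.157, exact test). Hnrnph1 went from 0.81 to 0.93, on 4135 and 265 reads in WT and 963 and 9 in the knock-down (length-adjusted log2 odds ratio 3.65, interval 2.77 to 4.88). Hnrnpm went from 0.96 to 0.99. Hnrnpd fell from 0.15 to 0.03 at its 107-nucleotide exon and Hnrnpc from 0.04 to 0.01 at an exon of 1223 nucleotides. With no minimum per read class the Hnrnpd exon was not called (adjusted p = 0.0715, exact test). Hnrnpa1, Hnrnpa2b1 and a further exon of Hnrnpd were higher by reads but lower by deposited level.

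The other RNA-binding regulators had 6 higher and 2 lower of 28 events (28.6% called, median 0.49), and the core spliceosome and RNA helicases 8 and 2 of 29 (34.5% called, median 0.48). Over all members 22.9% were called. In both lists the level rose at 5 of the higher events. Son, a scaffold of nuclear speckles, rose from 0.07 to 0.18, and Fubp3, a single-strand binding protein, fell from 0.17 to 0.01 at a 133-nucleotide exon. Rbm39 had the second largest size of all higher calls at an exon of 274 nucleotides, with 284 and 1546 reads in WT and 30 and 1 in the knock-down. The single knock-downs had 0 skipping reads at this Rbm39 exon, TKO had 1224, and the deposited intervals of WT (level 0.13) and knock-down (0.27) overlapped. Prpf38b, a spliceosome component, fell from 0.17 to 0.05. The 1360-nucleotide exon of Snrnp70, the U1 snRNP protein, went from 1576 and 1103 reads to 991 and 80 while its level went from 0.36 to 0.09. None of 4 events of exon junction complex and nonsense-mediated decay genes was called.

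**Figure D3:**
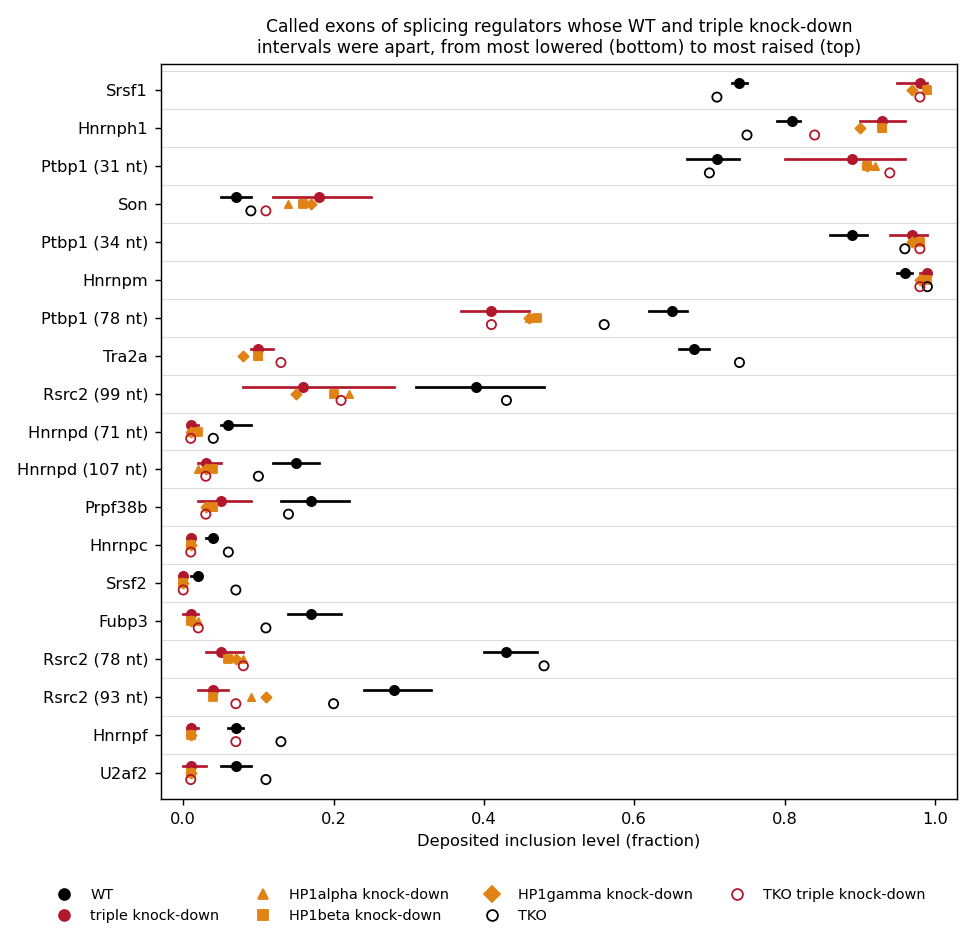
Deposited inclusion level (fraction, x axis) of the called exons of the 4 splicing lists whose WT and triple knock-down intervals were apart and moved with the reads; lines are deposited intervals. Red and orange knock-down symbols stand together and apart from black WT, for example at Tra2a (0.10 against 0.68) and Srsf1 (0.98 against 0.74).

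Chromatin genes were called about as often as exons in general. Of 60 events of histone modifiers, readers and remodellers 6 were higher and 9 lower, or 25.0% against 22.9% over all members. Of the 9 lower, 4 were in Mtf2, a Polycomb accessory protein, out of its 5 events. The Mtf2 exon of 362 nucleotides (chromosome 5, 108069162 to 108069523) fell from 0.52 to 0.14, on 713 and 75 reads in WT and 73 and 90 in the knock-down. It shares its start with the 202-nucleotide form, so their reads overlap. The Mtf2 events of 362, 113 and 148 nucleotides lie between the same flanking splice sites and so share skipping reads. These numbered 75 in WT for each, and 90, 75 and 85 in the knock-down. The 4 lower Mtf2 events are therefore not separate observations. Bptf, the reader subunit of the NURF remodeller, fell at a pair of exons, from 0.76 to 0.32 and from 0.12 to 0.02. The second of these Bptf exons was not called after thinning (adjusted p = 0.124, exact test) or with no minimum per read class (0.516). A rare exon of the remodeller subunit Smarcc1 fell from 0.05 to 0.01. The 6 higher events were in Prmt5, the histone acetyltransferase gene Kat7 (0.52 in WT and 0.70 in the knock-down), Mta1 (0.19 and 0.26), Ezh2, the catalytic subunit of Polycomb complex 2 (0.72 and 0.58, against its reads), and Setd2. In Setd2, the lysine 36 methyltransferase, 2 overlapping exons had levels of 0.04 and 0.07 in WT and 0.09 and 0.11 in the knock-down.

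None of 12 events in 9 HP1 and heterochromatin genes was called, with a median length-adjusted log2 odds ratio of -0.37. The called event among 4 of DNA methyltransferase and TET genes was in Dnmt3b, higher by 1.10 relative to its length class, while its log2 odds ratio before adjustment was 0.13 and its level was 0.34 in WT and 0.33 in the knock-down. In the pluripotency list 1 of 9 events (11.1%, against 22.9% over all members) was called, Tcl1, a coactivator of Akt, at 0.96 in WT and 0.81 in the knock-down. Tcl1 was not called after thinning (adjusted p = 0.29, exact test) or with no minimum per read class (0.541). None of 3 events of interferon and siRNA response genes was called, and the list of differentiated and fibroblast markers had no event among the members.

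Housekeeping genes had the highest shares of calls among the lists with more than 10 events, next to hnRNP genes. Calls were more frequent among events with more knock-down reads, as described below, and the lists were not matched for depth. Ribosomal protein and translation factor genes had 9 higher and 10 lower of 41 events (46.3% called, against 22.9% over all members). Their median size regardless of sign was 1.39 against 0.97 over all members. The called events lay in 8 genes for the higher and 6 for the lower direction, and those of Rps27l, Eif5a and Rpl22 overlap within each gene and share reads. Eif4a2, an RNA helicase of translation initiation, fell from 0.81 to 0.10 at a 107-nucleotide exon (chromosome 16, 23112351 to 23112457). The reads of Eif4a2 were 4353 and 627 in WT and 88 and 193 in the triple knock-down, which gave a length-adjusted log2 odds ratio of -3.39 and an adjusted p of 1.09e-70 in the exact test. Eef1d, an exchange factor subunit of elongation factor 1, rose from 0.70 to 0.93 on 1252 and 107 reads in WT and 1219 and 38 in the knock-down. Rps24 rose from 0.21 to 0.82 at a 20-nucleotide exon. Rps6kb1, named above, is caught by the symbol pattern of this list but encodes a kinase, not a ribosomal protein.

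Mitochondrial genes had 8 higher and 7 lower of 36 events (41.7% called, against 22.9% over all members). Besides Atp5c1, a 27-nucleotide exon of Mtch2, an outer membrane protein, rose from 0.29 to 0.72, on 94 and 102 reads in WT and 23 and 4 in the knock-down. Slc25a38, a glycine carrier, rose from 0.06 to 0.28. Dnm1l, the dynamin of mitochondrial fission, fell from 0.82 to 0.36 at a 33-nucleotide exon. Ndufs1, a subunit of complex I, fell from 0.44 to 0.10, and was not called with no minimum per read class (adjusted p = 0.206, exact test). Vdac1, a channel of the outer membrane, stood at 0.02 in WT and 0.00 in the knock-down (adjusted p = 0.0333, exact test). With 20 length classes in place of 8 Vdac1 was not called by the exact test (adjusted p = 0.0647), nor was it after thinning (0.275) or with no minimum per read class (0.622).

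The cytoskeleton, adhesion and polarity list had 14 higher and 4 lower of 67 events (26.9% called, median 0.32). Over all members 22.9% were called. The deposited level was higher in the knock-down in 7 of the 14. Mfge8, a secreted adhesion protein, rose from 0.20 to 0.52 on 71 and 48 reads in WT and 191 and 64 in the knock-down. Both a 45-nucleotide exon of the polarity kinase gene Mark3 (0.52 to 0.23) and a 273-nucleotide exon of fibronectin, Fn1 (0.84 to 0.48), fell. Mark3 was not called after thinning (adjusted p = 0.0795, exact test), and Fn1 was not called with no minimum per read class (length-adjusted log2 odds ratio -0.18 against -1.11). In the list of cell cycle and DNA repair genes 4 of 47 events were higher and 5 lower (19.1% called, against 22.9% over all members). Depdc1a fell from 0.99 to 0.22 in deposited level, on 921 and 5 reads in WT and 74 and 14 in the knock-down. Inclusion reads of Depdc1a thus still outnumbered skipping reads in the knock-down, which its low level there does not reflect. The exons of 2 centromere genes went opposite ways: Cenpm rose from 0.85 to 0.98 and a rare exon of Cenpa fell from 0.06 to 0.01. Cenpm was not called after thinning (adjusted p = 0.0912, exact test), nor Cenpa with no minimum per read class (0.073).

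**Figure D4:**
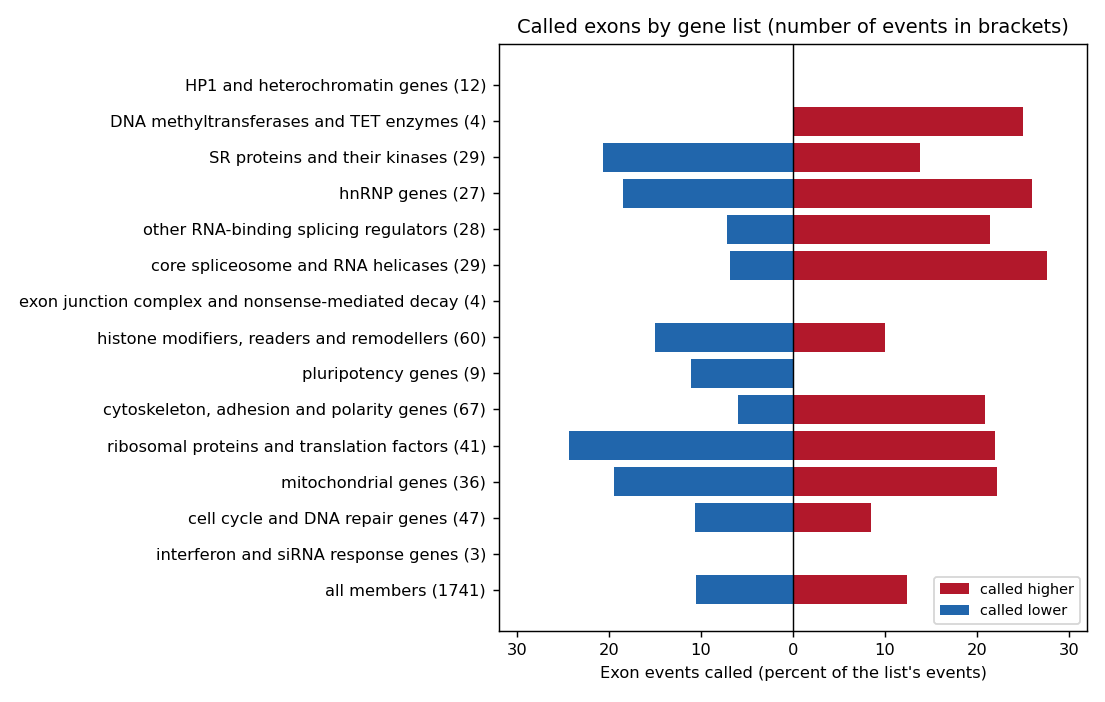
Percent of each list's exon events called higher (red, to the right) or lower (blue, to the left), with the number of events in brackets and all 1741 members at the bottom. Ribosomal, mitochondrial and hnRNP genes reach 41.7% to 46.3% with both directions, and lists of fewer than 13 events rest on 0 or 1 calls.

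By reads relative to the length class, called exons of 1 gene went opposite ways in 10 genes. Among them were Cenpa, Ctnnd1, Eif5a, Fubp3, Hnrnpd, Ppp6r3, Prrc2c, Ptbp1 and Ptprf. The deposited level fell at every called exon of Cenpa, Hnrnpd, Ppp6r3 and Prrc2c, so there the levels did not go opposite ways. Ctnnd1, the p120 catenin that stabilises cadherins, showed opposite directions most plainly, in both reads and level. Its 63-nucleotide exon (chromosome 2, 84605184 to 84605246) rose from 0.64 to 0.85, on 1156 and 451 reads in WT and 114 and 7 in the triple knock-down. Its 180-nucleotide exon (84624270 to 84624449) fell from 0.67 to 0.05, on 707 and 227 reads in WT and 19 and 84. Both differ from their length class by more than 2 on the log2 scale, at 3.22 and -2.48. At Eif5a the opposed events share the same exon but have different flanking exons.

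TKO cells with and without the triple knock-down form a second contrast from separate libraries, on the same pair of platforms. Of the members 1248 met the read minimums in this pair. Among exons called higher in WT cells 171 of 190 (90.0%) lay above their length class in TKO cells too, and among those called lower 134 of 143 (93.7%) lay below. For uncalled members the direction was shared in 579 of 915 (63.3%). In the TKO pair 14.8% and 14.4% of 1732 events were called higher and lower. There 115 of the 190 were called higher and 6 lower, and 88 of the 143 were called lower and 3 higher. Across the 1248 exons, which are not independent replicates and share the platform contrast, Pearson's r was 0.634 and Spearman's rho 0.599. Naca (7.92), Atp5c1 (6.80), Srsf1 (4.85) and Dkc1 (4.80) were again far above their length class in TKO cells, and Ccnb1 (-4.29) and Cenpa (-5.50 at its 107-nucleotide exon) far below. Of the named exons that could be compared, 20 of 22 higher and 23 of 23 lower ones kept their direction. Rpl10 was at -0.35 in the TKO pair against -4.77 in WT cells.

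**Figure D5:**
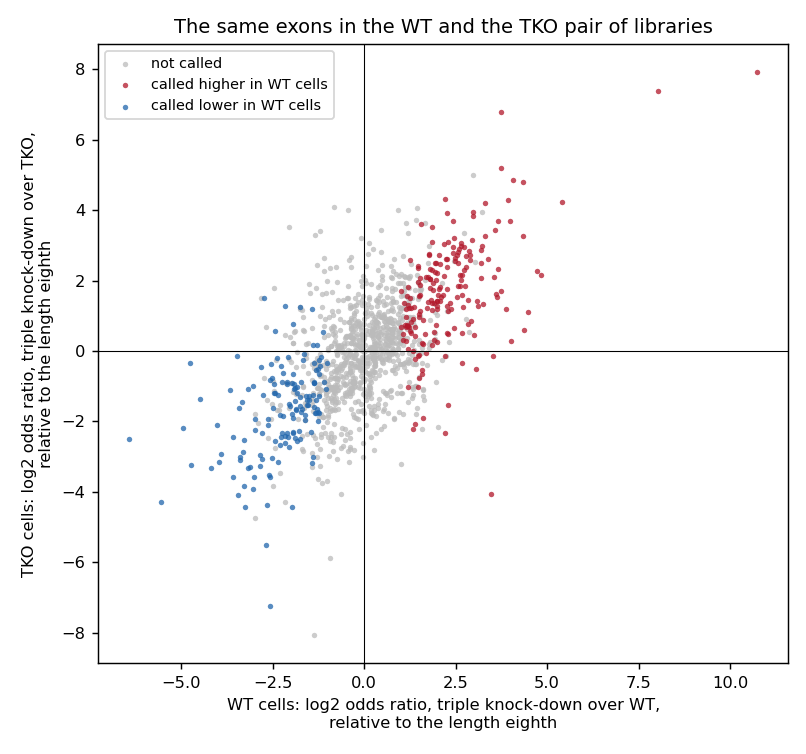
Length-adjusted log2 odds ratio of the triple knock-down in WT cells (x axis) and in TKO cells (y axis) for the 1248 exons read in both pairs. Most exons called higher (red, 171 of 190) lie above 0 on the y axis and most called lower (blue, 134 of 143) below it.

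The single knock-downs share the WT library with the triple knock-down comparison, so their differences from WT are not independent of it and only levels are set side by side. Of the 155 lower events with intervals apart, the triple knock-down's interval overlapped that of every single knock-down in 150, and of the 55 higher events in 52. The interval of every single knock-down was apart from that of WT in 142 and 34 of them. The 155 and 55 events were themselves chosen because the triple knock-down's interval was apart from that same WT interval. The same counts were not taken over all members, so whether these shares exceed those of exons in general was not tested. The median level of the 155 was 0.60 in WT, 0.19 after HP1alpha, 0.16 after HP1beta and 0.15 after HP1gamma knock-down, and 0.15 in the triple knock-down. For the 55 higher events it was 0.37 in WT, 0.62, 0.65 and 0.68 in the single knock-downs and 0.72 in the triple. Every knock-down of WT cells shares transfection, kit and read length with the triple, and their part in the levels was not tested.

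The features below are described without a test. Over all 1741 members 12.4% were called higher and 10.5% lower. Exons whose length is a multiple of 3, which keep the frame when skipped, made up 875 of the 1741 members. Of these 119 (13.6%) were higher and 77 (8.80%) lower, whereas of the 866 others 97 (11.2%) were higher and 106 (12.2%) lower. Of 18 microexons of at most 27 nucleotides 5 (27.8%) were higher and 3 (16.7%) lower. Their median log2 odds ratio before adjustment was 0.44, against -0.35 in the shortest length class and -0.79 over all members. Their median length-adjusted log2 odds ratio was 0.79. With events ranked by their shorter flanking intron into 4 classes, the shares called higher ranged from 11.3% to 13.6%. The shares called lower ranged from 8.97% to 14.1%, the latter for introns of 306 to 773 nucleotides. By level in WT, exons above 0.90 were called higher in 4.77% and lower in 10.1% of 398 events. Exons at or below 0.10 were called higher in 15.2% and lower in 6.99% of 429. All 30 of the lower events in that last group also had a level of at most 0.10 in the knock-down. The classes by WT level rest on the same WT library as the calls, so these shares are not independent of the comparison. By depth, among events with 20 to 42 knock-down reads 9.13% were called higher and 5.94% lower, and among those with 181 or more 17.7% and 14.5%.

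The read minimums set which exons could be seen. With 15 to 19 distinguishing reads in the shallower library, 93 further events had a median log2 odds ratio of -0.72, and the 108 members with 20 to 24 reads had -1.07. The requirement of both read classes left out 2850 events, whose median log2 odds ratio of -2.15 depends on the 0.5 added to an empty class and was lower than the -0.79 of the members. In 2096 of these WT had no skipping read, and in 1646 the triple knock-down had none. Members with 1 read in the smallest class numbered 292 (median -0.999). When events with an empty class were kept and the length classes recomputed over 4591 events, 441 were called higher and 175 lower. All 216 higher calls were among the 441, but only 81 of the 183 lower calls were among the 175.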

How the data were processed

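RNA of ES cells was sequenced in 7 groups of 2 replicates, and the authors pooled the replicates of a group into 1 file per the labels. Reads were handled with TopHat2 and Bowtie2 on mm10, per the submitters' processing notes, and skipped exons were quantified with MISO, per the file headers; tool versions were not stated. Inclusion levels were deposited as a fraction (0 to 1) with the authors' interval. Each deposited event also holds counts of reads for inclusion alone, skipping alone, both or neither, with 100 or more reads over these classes.

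Symbols came from the GRCm38.p6 RefSeq gene table (gene span holding the event, same strand). Among the members 32 had no gene and 2 several. Read classes were compared with a conditional exact test (Fisher's noncentral hypergeometric distribution) in Python 3.11.15 with SciPy 1.17.1, against the median odds ratio of 8 length classes, taken as fixed, and adjusted by Benjamini-Hochberg over 1741 events. The code was tested on simulated data. Reads of overlapping events are shared.

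The members, gene lists and rules were chosen with earlier results of these data known. Named were called exons with intervals apart and level and reads in 1 direction, 1 per gene: the 12 largest per direction and up to 3 per list and direction, with genes called both ways. Further exons (other called members of the lists, such as Rbm39, Snrnp70, Kat7, Mta1, Ezh2, Setd2, Dnm1l and the second exons of genes) were added after their values were seen. Exon sequences were not used here. The 10 alternatives are in the closing section. Bisulfite and MNase samples were not analysed here. Results for some genes are not reported here.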

Additional observations from a re-analysis of the deposited data

Results flagged for a closer look

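Among the named exons, 2 lay above their length class after the triple knock-down in WT cells and below it in TKO cells; the difference between the cell lines was not tested. The 54-nucleotide exon of Hnrnpm had a length-adjusted log2 odds ratio of 1.47 in WT cells and -1.03 in TKO cells, with deposited levels of 0.96 in WT, 0.99 after knock-down, 0.99 in TKO and 0.98 after knock-down in TKO. The Slc25a38 exon had 3.53 in WT cells and -0.14 in TKO cells, with levels of 0.06 and 0.28 in the WT pair and 0.23 and 0.17 in the TKO pair.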

How the results depend on the processing

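The count of exons higher than their length class was 216 and moved by more than 1.5 times under 4 of 10 alternatives: 96 against an odds ratio of 1, 441 with no minimum per class, 70 when the deposited level also had to change by 0.1, and 134 with WT reads thinned to the knock-down's depth. The count of lower exons was 183 and moved by more than 1.5 times under 1, an odds ratio of 1, with 433. Under the other alternatives (20 length classes, length classes split by inclusion share, 50 reads, 5 reads of each class, a smaller size threshold, 1 event per exon) the counts were 159 to 232 higher and 147 to 193 lower. For the 54 named exons, 461 of 502 values kept direction and call, 41 kept direction without the call and none reversed. No paired analysis was possible because the deposited files pool the replicates, and for the same reason no replicate could be left out. The knock-down library's depth limits what could be called.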
